A study of Mus musculus with 24 samples.

Results

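E14TG2a mouse embryonic stem cells (mESCs, strain 129/Ola) carrying a hairpin against Med12 were compared directly with the same line carrying a hairpin against Cdk8, both after 24 h of differentiation with retinoic acid (RA). The comparison takes the 3 libraries of RA-treated shMed12 cells and the 3 of RA-treated shCdk8 cells, 6 of the 24 libraries of the series, and covers all genes. The label of each library fixed its membership, and no measured value was used to choose it. All 6 come from stably transfected cells that had grown without feeders in serum and LIF, and then lost LIF and received 1e-06 M all-trans RA for 24 h. RA-treated cells with shNMC, a hairpin without a mammalian target, and shMed12 and shCdk8 mESCs kept in LIF (3 libraries each) are used for context. Nothing in the labels says how many hairpin sequences or clones stand behind a target, or whether replicates were separate cultures. P-values therefore measure the spread between these libraries, which may be technical.

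Mediator is the large complex that carries signals from transcription factors to RNA polymerase II. Its detachable kinase module holds a cyclin-dependent kinase (CDK8 or its paralog CDK19), cyclin C, MED12 (or MED12L) and MED13 (or MED13L). MED12 activates the kinase, and MED13 tethers the module to the core complex. RA enters the nucleus, binds RAR and RXR receptors and, in mESCs, switches on Hox and retinoid-metabolism genes while pluripotency genes are shut down. The 2 hairpins thus lower different parts of a single module, and the comparison asks where the transcriptomes of the 2 lines part.

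The 6 libraries held 45.9 to 57.3 M counts in genes (M, 1e06), detected 17905 to 18228 genes each and had 44.1% to 47.7% of their entries in reads with several alignments. Levels below are CPM, counts scaled to a TMM-adjusted library of 1 M, and 3 counts, the smallest amount read as a level, stand for 0.0464 to 0.0588 CPM. CPM is not divided by transcript length, so levels are compared between libraries and not between genes. Differences are log2 values of shMed12 minus shCdk8 from edgeR's quasi-likelihood test, with a standard error (SE) and an adjusted p over all 16280 genes tested. A gene called higher or lower has an adjusted p under 0.05.

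Each target was low in its own line. Med12 stood at 38.8, 45.6 and 61.2 CPM in the 3 shMed12 libraries, at 116, 135 and 142 CPM with shCdk8 and at 94.1, 120 and 144 CPM with shNMC. The shMed12 libraries lay below all others, and the log2 difference from shCdk8 was -1.43 (SE 0.16, adjusted p = 5.2e-07), or 0.370 times the level. Cdk8 stood at 12.4, 9.04 and 8.21 CPM with shCdk8, at 54.1, 46.5 and 43.7 CPM with shMed12 and at 48.1, 46.0 and 42.6 CPM with shNMC. The shCdk8 libraries lay below the rest, and the difference was 2.28 (SE 0.15, adjusted p = 4.1e-10), or 4.86-fold.

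The rest of the kinase module moved less. Med12l, the paralog of Med12, stood at 33.6, 35.3 and 31.9 CPM with shMed12, 19.8, 22.4 and 20.2 CPM with shCdk8 and 14.5, 17.7 and 18.3 CPM with shNMC. It was thus highest in every shMed12 library (log2 0.69, SE 0.21, adjusted p = 0.012). Med13 was lower with shMed12 (-0.41, SE 0.08, adjusted p = 2.6e-04), in 151 to 181 CPM against 217 to 234 CPM, with no overlap. The cyclin C gene Ccnc was lower as well (-0.37, SE 0.12, adjusted p = 0.019). That call ended without shMed12 replicate 2 or 3 (adjusted p = 0.0724 and 0.0681) or shCdk8 replicate 1 or 2 (0.0791 and 0.0612). Cdk19 (-0.23, SE 0.11) and Med13l (-0.31, SE 0.16) did not pass (adjusted p = 0.08 and 0.12). In all, 2 module genes were higher, 3 lower and 2 did not pass.

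**Figure D1:**
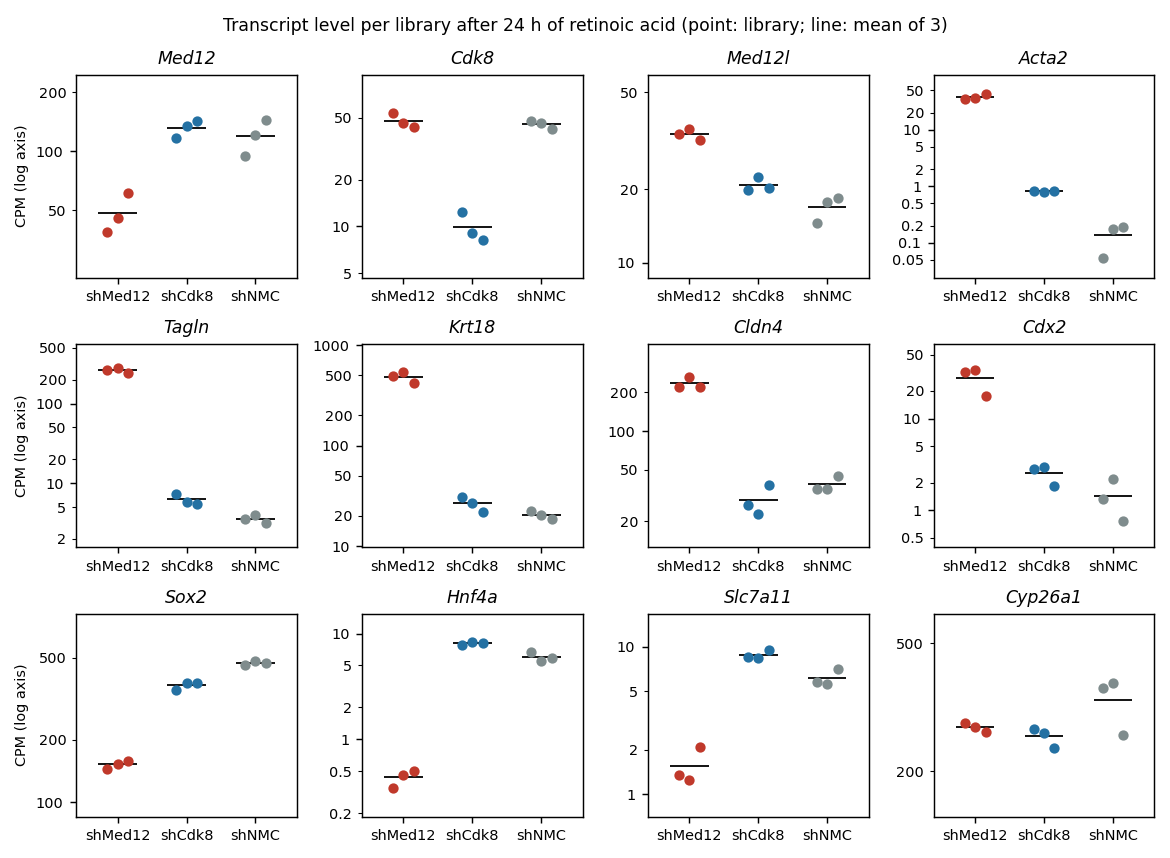
Level of 12 genes in CPM (log axis) in each of the 9 RA-treated libraries, by hairpin on the x axis (point, a library; line, the mean of 3). Med12 is low only in the shMed12 libraries and Cdk8 only in the shCdk8 libraries, while Acta2, Tagln, Krt18, Cldn4 and Cdx2 stand high and Sox2, Hnf4a and Slc7a11 low with shMed12.

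Of the 16280 genes, 3470 (21.3%) were higher and 3277 (20.1%) lower with shMed12 than with shCdk8, and 9533 did not pass. By at least 2-fold, 1093 (6.71%) were higher and 1285 (7.89%) lower, and by at least 4-fold 362 and 343. In 9779 genes the 3 values of a group did not overlap those of the other, and 6605 of these were called, so a lack of overlap adds little to a call. The median difference over all genes was 0.01, a centre that the TMM scaling sets near 0. The share of called genes is the background for each gene group below: a group with shares close to these does not stand out from the table as a whole. Gene groups are described by these counts and their median, without a test of the group.

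**Figure D2:**
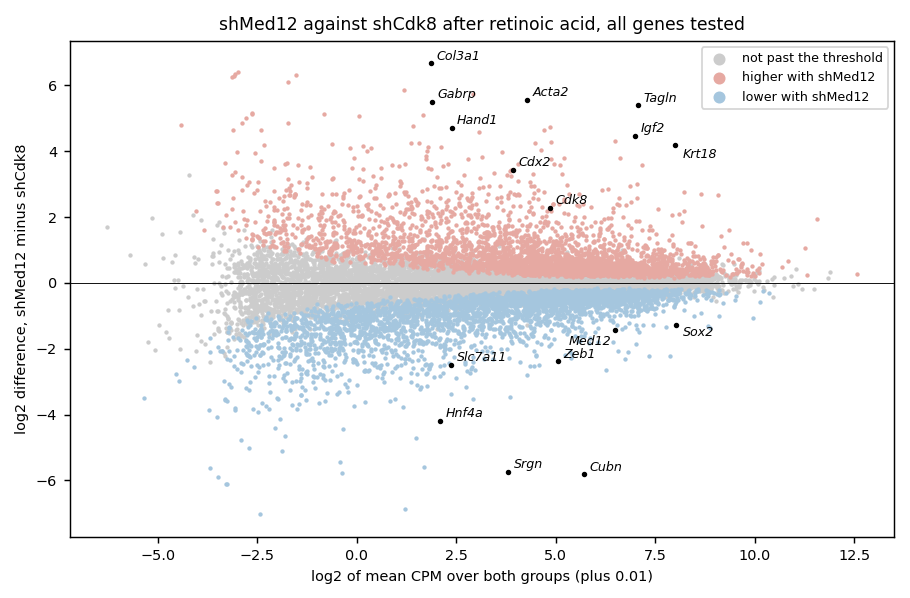
Log2 difference of shMed12 minus shCdk8 after RA (y axis) against log2 mean CPM over both groups (x axis) for the 16280 genes tested (1 point a gene; red higher, blue lower, grey not past the threshold, black named). Named genes include Col3a1 (6.67), Tagln (5.39) and Cubn (-5.81), far from the bulk of the genes, which is centred on 0.01.

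The largest rises with shMed12 were in genes of the contractile cytoskeleton and of fibrous matrix. Acta2, which encodes smooth-muscle actin, stood at 34.6, 36.7 and 42.5 CPM with shMed12, at 0.81, 0.788 and 0.823 CPM with shCdk8 and at 0.0536, 0.177 and 0.186 CPM with shNMC. Every shMed12 library was thus above every other library, and the difference was 5.55 (SE 0.52, adjusted p = 3.5e-08), or 46.9-fold. Tagln, which encodes the actin-binding protein transgelin, stood at 266, 279 and 243 CPM against 7.34, 5.86 and 5.51 CPM with shCdk8, and at 3.13 to 3.92 CPM with shNMC (log2 5.39, SE 0.40, adjusted p = 1.4e-09). Col3a1, a fibrillar collagen, stood at 7.62, 8.06 and 5.95 CPM with shMed12 and at 0.0496 to 0.0784 CPM with shCdk8, near the level of 3 counts (6.67, SE 0.35). Other rises among the 10 largest included the troponin gene Tnnt3 (5.10), the chemokine gene Ppbp (4.77), the 14-3-3 sigma gene Sfn (4.73), the trophoblast and mesoderm factor gene Hand1 (4.71) and Stmn4 (4.58), which encodes a microtubule regulator. Gabrp, a GABA receptor subunit, stood at 8.47, 7.97 and 5.40 CPM against 0.118 to 0.185 CPM (5.50, SE 0.32).

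Largest in the other direction was Cubn, the endocytic receptor cubilin of visceral endoderm. It stood at 1.72, 1.14 and 2.58 CPM with shMed12, 106, 110 and 90.7 CPM with shCdk8 and 61.8, 46.9 and 64.4 CPM with shNMC (-5.81, SE 0.81, adjusted p = 9.1e-06). The shMed12 libraries were lowest, and those of shCdk8 lay above those of shNMC. Srgn, the proteoglycan serglycin, followed the same order, at 0.463 to 0.574, 18.9 to 33.5 and 11.6 to 18.2 CPM (-5.74, SE 0.71). Hnf4a, a nuclear receptor of endoderm, stood at 0.347, 0.463 and 0.502 CPM with shMed12 and 7.86, 8.24 and 8.17 CPM with shCdk8 (-4.20, SE 0.38). The others were Nostrin (-5.60), which encodes a trafficking protein of nitric oxide synthase, the FGF co-receptor gene Klb (-4.72), Ccdc38 (-3.52), the protease gene Napsa (-3.47), the sodium channel gene Scn3a (-3.37), the piRNA-pathway gene Piwil4 (-3.21) and Nxf3 (-3.15), of an RNA export family. The 10 rises and 10 falls were ranked by log2 difference among called genes with at least 5 CPM in a group and no overlap between the groups, so their lack of overlap is given by the choice.

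Contractile and actin-regulating genes were mostly higher with shMed12. In the smooth muscle and contractile list 19 of 25 members were higher, 4 lower and 2 did not pass, with a median of 1.61. Their summed level was 4544 to 4708 CPM with shMed12, 1429 to 1550 CPM with shCdk8 and 1376 to 1457 CPM with shNMC. The calponin gene Cnn2 stood at 196, 220 and 205 CPM against 25.4, 26.1 and 29.8 CPM (2.94, SE 0.12), the tropomyosin gene Tpm1 at 822 to 998 CPM against 138 to 154 CPM (2.67, SE 0.11) and Csrp1, of a LIM protein of smooth muscle, at 294 to 325 CPM against 61.6 to 68.4 CPM (2.25, SE 0.11). The 4 lower members were Mylk (-1.55), which encodes the light-chain kinase, the smooth-muscle myosin gene Myh11 (-1.13), the smooth-muscle actin gene Actg2 (-0.98) and Tnnt1 (-0.96). Myh11, a defining marker of differentiated smooth muscle, stood at 0.945 to 1.43 CPM with shMed12 and 2.52 to 2.80 CPM with shCdk8, so the rise of the list did not extend to it. Desmin, Des, did not pass (0.19).

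Targets of YAP and TEAD, the effectors of the Hippo pathway, were higher in 10 of 12 cases, with none lower and a median of 0.97. Ankrd1 stood at 5.65, 5.62 and 5.61 CPM with shMed12 and 0.314, 0.402 and 0.157 CPM with shCdk8 (4.23, SE 0.68, adjusted p = 3.9e-05). Axl, a receptor kinase, stood at 24.6 to 28.9 CPM against 7.19 to 8.62 CPM (1.76, SE 0.23), the kinase gene Lats2 at 21.5 to 25.3 CPM against 7.03 to 9.41 CPM (1.53, SE 0.30) and the angiomotin gene Amotl1 at 131 to 136 CPM against 60.9 to 76.9 CPM (0.94, SE 0.16). Ctgf (-0.03) and Crim1 (0.50) did not pass.

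The 250 bases before the start sites of genes, those of these 2 groups included, were searched for the letters of serum response factor and TEAD sites. Promoters are from RefSeq (GRCm38.p6), which held an entry for 11282 of the 16280 genes tested. The CArG box, bound by serum response factor, was present on either strand in 1.16% of the 11282, in 2.59% of the 696 with a rise of at least 2-fold, in 1.16% of the 865 with a fall of that size and in 5 of the 21 contractile genes that had an entry. GGAATG, the letters of a TEAD site, was present in 10.9% of all, in 14.2% of the rises, in 12.7% of the falls, in 10 of the 21 contractile genes and in 4 of the 7 YAP and TEAD targets with an entry. These motifs are shown from 13 searched and were picked after the counts were seen. Both lists hold textbook members, so their motif shares can follow from how the lists were composed. Those shares are no evidence on why the genes differed here, which was not tested. A match is a stretch of letters and not a measured binding site. The CArG box was counted only where A or T filled every place between CC and GG. Stretches 1 letter away, such as ccctatatgg and ccttgtttgg in the Acta2 sequence, were neither counted nor marked. The 3 sequences show matches before genes whose levels are given above, read 5′ to 3′ on the gene's strand with the match in capitals. Cnn2 lies on the plus strand with this window at chr10:79988350-79988599 and holds a CArG box 56 to 47 bases before its start. Acta2 (minus strand, chr19:34255374-34255623) holds 1 GGAATG 146 to 141 bases before it, and Ankrd1 (minus strand, chr19:36119845-36120094) holds 2, at 210 to 205 and 123 to 118 bases.
Cnn2: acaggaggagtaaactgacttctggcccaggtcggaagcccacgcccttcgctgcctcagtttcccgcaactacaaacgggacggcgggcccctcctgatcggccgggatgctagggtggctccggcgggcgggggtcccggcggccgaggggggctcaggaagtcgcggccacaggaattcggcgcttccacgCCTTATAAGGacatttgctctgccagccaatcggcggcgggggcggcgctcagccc
Acta2: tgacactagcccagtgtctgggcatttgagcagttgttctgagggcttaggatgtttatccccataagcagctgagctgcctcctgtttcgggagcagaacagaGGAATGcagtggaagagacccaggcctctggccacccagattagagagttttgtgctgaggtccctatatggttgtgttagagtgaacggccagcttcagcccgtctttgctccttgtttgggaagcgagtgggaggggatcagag
Ankrd1: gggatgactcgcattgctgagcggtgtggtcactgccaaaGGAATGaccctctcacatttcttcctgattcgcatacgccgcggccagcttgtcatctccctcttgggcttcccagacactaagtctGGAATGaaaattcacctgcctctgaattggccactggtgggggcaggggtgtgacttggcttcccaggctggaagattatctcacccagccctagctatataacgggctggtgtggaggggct

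Caveolar, annexin and galectin genes were higher in 12 of 14 cases, with Sdpr lower (-1.12), Lgals3 not past the threshold and a median of 1.91. Cav1, the coat protein of caveolae, stood at 4.80, 5.56 and 4.27 CPM against 0.232, 0.263 and 0.274 CPM (4.24, SE 0.29). Lgals1, a galectin, stood at 489, 571 and 490 CPM against 79.1, 69.6 and 81.8 CPM (2.75, SE 0.22). The membrane-binding protein genes Anxa1 (3.79, SE 0.34) and S100a6 (3.59, SE 0.40) were higher as well. Fibrous matrix genes had no such common direction. In that list 7 of 20 were higher and 3 lower, with a median of -0.05, and the summed level was lower with shMed12 (1406 to 1563 CPM) than with shCdk8 (1693 to 2293 CPM). Col1a1 stood at 11.6 to 15.5 CPM against 3.06 to 3.86 CPM (1.94, SE 0.21), while Col6a3 stood at 0.160 to 0.347 CPM against 1.10 to 1.49 CPM (-2.35, SE 0.38). The fibroblast genes S100a4 and Dcn had 93 and 48 reads over the shMed12 libraries and 3 and 1 over the shCdk8 libraries. Their ratios were 33.4 (95% counting interval 11.1 to 165) and 51.7 (8.84 to 2083), intervals that cover counting error only. Of the fibroblast markers, the surface protein genes Thy1 (-0.58) and Pdgfrb (-0.06) and the filament gene Vim (-0.13) did not pass. The part of fibroblast-type genes in the contractile differences was not tested. With the 18 hairpin libraries alone 7 matrix genes were lower.

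Epithelial junction genes gave the most uniform list: 20 of 20 were higher with shMed12 and none lower, with a median of 1.81. Their summed level was 3205 to 3546 CPM with shMed12, 1273 to 1498 CPM with shCdk8 and 1588 to 1721 CPM with shNMC. Cdh1, E-cadherin, stood at 964, 1030 and 937 CPM with shMed12, at 284, 308 and 374 CPM with shCdk8 and at 505, 517 and 599 CPM with shNMC (1.6, SE 0.11, adjusted p = 4.5e-10). The 3 hairpins thus fell into 3 separate ranges, with shNMC in the middle. Against shNMC, Cdh1 differed by 0.85 with shMed12 and by -0.75 with shCdk8, values that share their control libraries. The claudin genes of tight junctions stood far apart, Cldn4 at 220, 262 and 221 CPM against 26.7, 22.7 and 38.0 CPM (3.01, SE 0.20) and Cldn7 at 39.9 to 50.7 CPM against 2.61 to 2.98 CPM (4.05, SE 0.27). Esrp2, an epithelial splicing factor, differed by 2.20 (SE 0.16).

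Regulators of the mesenchymal transition moved both ways, 5 of 11 higher and 3 lower. Zeb1, a repressor of E-cadherin, stood at 9.76, 9.50 and 12.7 CPM with shMed12 and at 52.4, 56.7 and 57.3 CPM with shCdk8 (-2.38, SE 0.14), below the 32.5 to 36.7 CPM of shNMC. Tgfb2, a TGF-beta ligand, stood at 10.8 to 14.2 CPM against 0.81 to 1.12 CPM (3.76, SE 0.25). The repressor gene Snai1 (1.19, SE 0.23) was higher as well. Integrins and laminins also split, 8 higher and 7 lower of 23. Itga3 stood at 395 to 471 CPM against 91.8 to 116 CPM (2.08, SE 0.15), the laminin gene Lama5 (1.08, SE 0.18) was higher and Lama3 lower (-1.65, SE 0.22). Without shMed12 replicate 2 the number lower was 4.

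Trophectoderm is the outer, placenta-forming epithelium of the blastocyst, and its genes were higher in 12 of 14 cases, with none lower and a median of 2.43. Cdx2, a factor that defines the lineage, stood at 32.3, 33.6 and 17.5 CPM with shMed12, 2.83, 3.0 and 1.86 CPM with shCdk8 and 1.34, 2.22 and 0.764 CPM with shNMC (3.43, SE 0.40, adjusted p = 7.9e-07). The keratin genes Krt18 (4.18, SE 0.28), at 422 to 540 CPM against 22 to 30.8 CPM, and Krt7 (4.25, SE 0.34) and Krt19 (3.61, SE 0.26) were higher too. The summed level of the list was 772 to 1006 CPM with shMed12, 74.2 to 85.0 CPM with shCdk8 and 72.5 to 80.7 CPM with shNMC. Of its defining factors, Elf5 stayed low, at 0.232 to 0.339 CPM with shMed12, though it was called higher (2.19), and Eomes did not pass (0.46, adjusted p = 0.13). In bulk RNA, more cells of a type and more RNA per cell cannot be told apart. The part of the trophectoderm genes in the epithelial differences was not tested.

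**Figure D3:**
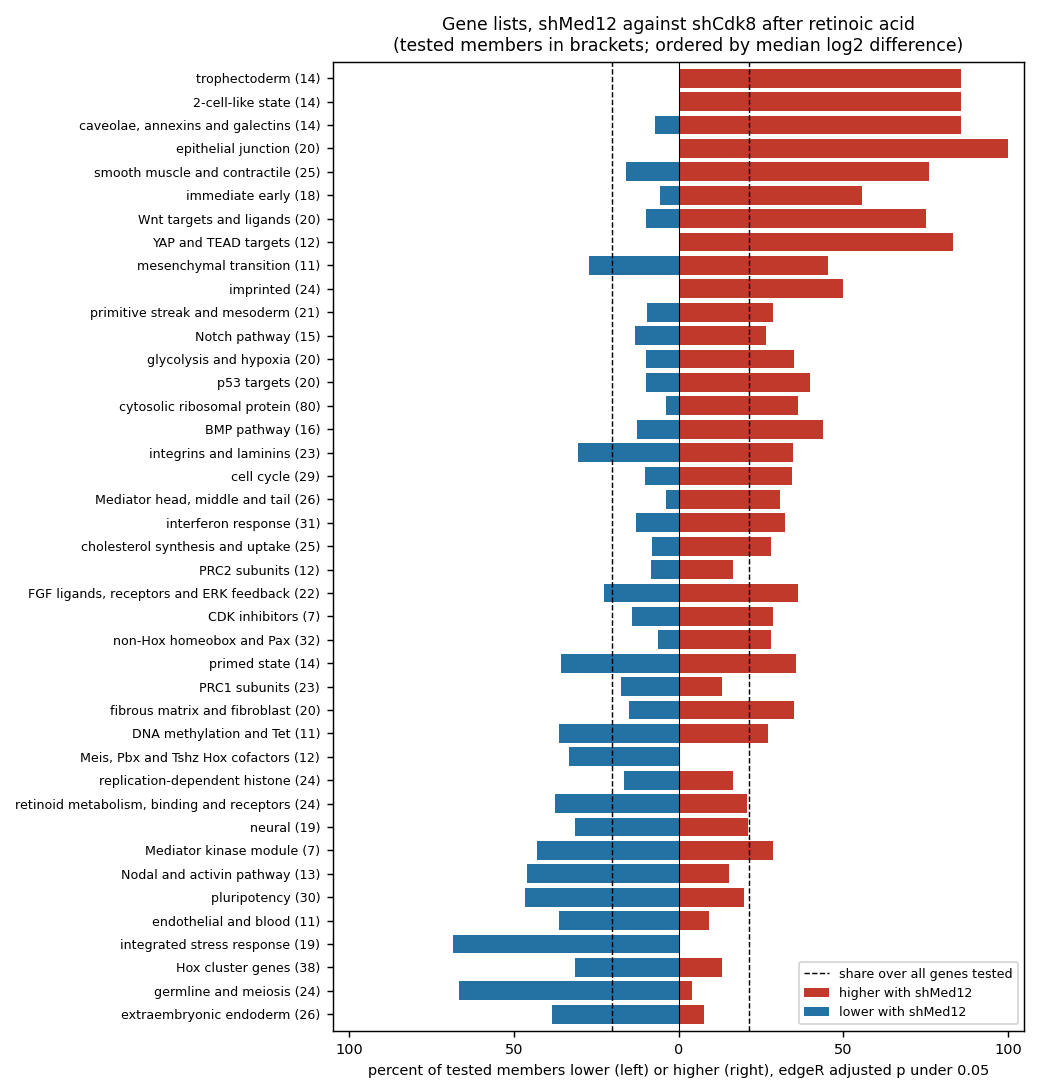
Percent of the tested members of 41 gene lists that were higher (right, red) or lower (left, blue) with shMed12 than with shCdk8 after RA, ordered by median log2 difference, with the number tested in brackets. The dashed lines mark the shares over all genes (21.3% and 20.1%): epithelial junction genes reach 20 of 20 higher, and integrated stress response genes 13 of 19 lower.

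Extraembryonic endoderm genes leaned the other way. Of 26 members 10 were lower, 2 higher and 14 did not pass, with a median of -0.84. Beside Cubn, Srgn and Hnf4a, the laminin gene Lama1 stood at 18, 20.4 and 25.2 CPM with shMed12 and 135, 143 and 118 CPM with shCdk8 (-2.64, SE 0.48). Gata6, a defining factor of the lineage, stood at 3.30, 3.60 and 2.35 CPM against 16.3, 16.1 and 13.4 CPM (-2.31, SE 0.47, adjusted p = 4.5e-04), and in 7.28 to 9.88 CPM with shNMC. Gata4 did not pass (-0.47, SE 0.53), although its groups did not overlap. The late markers Afp, Ttr and Apoa1 stayed under 0.3 CPM in all 6 libraries, and Ttr had 1 read over the shMed12 and 22 over the shCdk8 libraries, a ratio of 0.0489 (0.00119 to 0.303, counting error only). The summed level of the list did not follow its calls, at 2429 to 2631 CPM with shMed12 and 2292 to 2388 CPM with shCdk8. With the 18 hairpin libraries alone, 17 members were lower and 6 higher.

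Endothelial genes had 4 of 11 members lower, 1 higher and 6 not past the threshold. Pecam1, an adhesion molecule also made by mESCs, stood at 29.8, 32.6 and 44.2 CPM with shMed12, and at 172, 165 and 193 CPM with shCdk8, close to the 151 to 192 CPM of shNMC (-2.31, SE 0.22). The receptor genes Tek (-0.93, SE 0.12) and Tie1 (-1.34, SE 0.28) and the cadherin gene Cdh5 (-3.36, SE 0.79) were lower. Among genes of at least 5 CPM the number lower was 2. The endothelial receptor gene Kdr stood at 0.598 to 1.08 CPM in the 6 libraries and did not pass (-0.43). Among neural genes 6 of 19 were lower and 4 higher. Nes, an intermediate filament of progenitors, stood at 74.1 to 84.2 CPM against 13.8 to 17.7 CPM (2.33, SE 0.18), whereas the neural factor genes Sox1 (-1.96, SE 0.25), Pax7 (-1.53, SE 0.29) and Pax6 (-0.81, SE 0.21) and the adhesion gene Ncam1 (-2.06, SE 0.17) were lower. In the primitive streak and mesoderm list 6 of 21 were higher and 2 lower, near the background in both directions, with the ligand gene Wnt3 (2.94, SE 0.32) and the forkhead gene Foxc1 (1.73, SE 0.33) the clearest. T, the classical streak gene, stood at 3.41, 3.53 and 1.43 CPM against 1.22, 1.22 and 1.69 CPM, with overlap (1.02, SE 0.42, adjusted p = 0.056). Among other homeobox and Pax genes 9 of 32 were higher and 2 lower (21.3% and 20.1% over all genes), with a median of -0.004. Higher were, among others, the limb and neural crest genes Msx1 (2.20) and Msx2 (2.16), and Irx4 (2.10). Gbx2 (-1.54) was among the lower. The number higher was 3 among genes of at least 5 CPM. The number lower was 7 with the 18 hairpin or the 9 RA libraries and 8 with the 6 libraries alone.

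Pluripotency genes were lower in 14 of 30 cases and higher in 6, with a median of -0.32. By at least 2-fold, 5 were lower and 3 higher, and the members ran from -2.18 to 2.35. Those named below were taken in order of p or as reference genes, and none is among the 6 higher. Without shCdk8 replicate 3 the number lower was 9. Sox2 stood at 144, 153 and 159 CPM with shMed12, 348, 378 and 377 CPM with shCdk8 and 459, 481 and 472 CPM with shNMC, in 3 separate ranges (-1.27, SE 0.08, adjusted p = 8.2e-11), or 0.414 times the shCdk8 level. The AKT co-activator gene Tcl1 stood at 6.93 to 10.5 CPM against 29.5 to 45.9 CPM (-2.18, SE 0.21) and Stat3, the effector of LIF, at 48.3 to 54.7 CPM against 86.1 to 89.9 CPM (-0.76, SE 0.08). Nanog overlapped between the groups and did not pass (-0.03, SE 0.17). Pou5f1 stood at 237, 283 and 297 CPM against 320, 289 and 402 CPM, again with overlap (-0.31, SE 0.12, adjusted p = 0.04). That call ended without shMed12 replicate 1 or 2 (adjusted p = 0.132 and 0.0622), without shCdk8 replicate 3 (0.205) and in a fit of the 9 RA libraries (0.0533).

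Genes of the primed, epiblast-like state split 5 higher and 5 lower of 14. The claudin gene Cldn6 stood at 280, 304 and 213 CPM with shMed12, against 21.6, 22.8 and 21.5 CPM with shCdk8 (3.59, SE 0.23), or 12.1-fold. The DNA methyltransferase gene Dnmt3b stood at 266 to 278 CPM against 93.8 to 99.4 CPM (1.49, SE 0.14), while Dnmt3a was lower (-0.61, SE 0.11), Dnmt3l higher (1.04, SE 0.19) and the demethylase gene Tet2 lower (-0.70, SE 0.10). In the DNA methylation list 3 of 11 were higher and 4 lower. The neural factor gene Zic2 (-1.17, SE 0.15) and the FGF ligand gene Fgf15 (-1.95, SE 0.30) were lower.

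Hox genes, the classical targets of RA, differed toward lower values with shMed12. Of 38 members 12 were lower, 5 higher and 21 did not pass, with a median of -0.56. Hoxb4 stood at 9.86, 8.73 and 12.8 CPM with shMed12, 35.6, 32.7 and 27.9 CPM with shCdk8 and 29.7, 27.6 and 20.0 CPM with shNMC (-1.62, SE 0.25, adjusted p = 2.7e-05). Its shMed12 libraries lay below all the others, and those of shCdk8 and shNMC overlapped. Hoxb5 (-1.56, SE 0.25), Hoxa4 (-1.19, SE 0.23) and Hoxb3 (-1.15, SE 0.24) showed the same order against shCdk8. All 12 lower members lie in the Hoxa and Hoxb clusters, and the 5 higher ones, Hoxc8 (1.61), Hoxc9 (1.70), Hoxc10 (1.08), Hoxd9 (1.99) and Hoxd10 (1.09), in Hoxc and Hoxd. The number lower was 20 with the 18 hairpin or the 9 RA libraries and 21 with the 6 libraries alone. The number higher was 0 among genes of at least 5 CPM, 1 without shMed12 replicate 1 or 2, and 2 without any 1 of the shCdk8 replicates. Hoxb1, an early RA target, overlapped between the groups and did not pass (-0.47, SE 0.24). Of 12 Hox cofactor genes 4 were lower and none higher, among them Pbx3 (-0.54, SE 0.11), Pknox2 (-1.0, SE 0.27), Tshz2 (-1.44, SE 0.35) and Meis2 (-0.84, SE 0.30). The Meis2 call ended without shMed12 replicate 1 or 2 (adjusted p = 0.0695 and 0.0962) or shCdk8 replicate 1 or 2 (0.0824 and 0.083).

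Genes that handle RA did not move as a group. Cyp26a1, which encodes the main RA-degrading enzyme, stood at 283, 275 and 265 CPM with shMed12 and 271, 263 and 237 CPM with shCdk8, with overlap (0.10, SE 0.23, adjusted p = 0.76). The receptor gene Rarb stood at 26.3 to 28.5 CPM against 31.6 to 37.2 CPM and did not pass (-0.36, SE 0.16, adjusted p = 0.085). Of the 24 members of the retinoid list 5 were higher and 9 lower, with a median of -0.11. Lower were Lrat, which esterifies retinol (-1.44, SE 0.17), Cyp26b1 (-1.39, SE 0.24) and the germ-cell gene Stra8 (-1.02, SE 0.18), which stood at 333 to 409 CPM with shMed12, 662 to 820 CPM with shCdk8 and 968 to 1380 CPM with shNMC. The number higher in the list was 3 without shMed12 replicate 2 or 3 or shCdk8 replicate 1 or 2.

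Wnt ligands and targets were higher with shMed12 in 15 of 20 cases and lower in 2, with a median of 1.06. The ligand gene Wnt7b stood at 25.4, 29.1 and 24.9 CPM against 2.40, 2.46 and 3.55 CPM (3.24, SE 0.27), Wnt4 at 14.4 to 15.1 CPM against 1.86 to 2.21 CPM (2.87, SE 0.28) and Wnt6 differed by 2.75 (SE 0.31). Sp5, a direct target of beta-catenin, stood at 3.91 to 7.91 CPM against 0.255 to 0.711 CPM (3.87, SE 0.42). Among genes of at least 5 CPM the number higher was 9. Immediate early genes were higher in 10 of 18 cases and lower in 1, with a median of 1.09. The AP-1 genes Fosl2, at 17.1 to 18.4 CPM against 2.14 to 2.35 CPM (2.95, SE 0.19), and Junb (1.99, SE 0.19), the nuclear receptor gene Nr4a1 (1.13, SE 0.11) and Klf6 (1.07, SE 0.16) were all higher.

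Other signalling lists were mixed. In the FGF list 8 of 22 were higher and 5 lower, with the receptor gene Fgfr1 (0.78, SE 0.09), the feedback inhibitor gene Spry2 (0.80, SE 0.09) and the phosphatase gene Dusp1 (1.26, SE 0.17) higher. In the Nodal and activin list 6 of 13 were lower and 2 higher. Lefty1, a Nodal antagonist, stood at 210, 224 and 353 CPM against 686, 682 and 666 CPM (-1.37, SE 0.31), and the activin subunit gene Inhbb at 0.927 to 1.18 CPM against 4.13 to 8.92 CPM (-2.51, SE 0.33), while the inhibitor gene Smad7 was higher (0.64, SE 0.08). Inhba, which encodes the other activin subunit, went the other way at a low level, with 38 reads over the shMed12 and 4 over the shCdk8 libraries (3.20, SE 0.63, adjusted p = 7.28e-04). The number lower was 3 without shMed12 replicate 1, 2 without replicate 2 and 3 without shCdk8 replicate 2. In the BMP list 7 of 16 were higher and 2 lower, led by Bmp8b, at 14.7 to 19.2 CPM against 2.46 to 2.89 CPM (2.69, SE 0.15), with the number higher 4 without shCdk8 replicate 3 and among genes of at least 5 CPM. In the Notch list 4 of 15 were higher, among them the glycosyltransferase gene Lfng (1.84, SE 0.22), and 2 lower, Notch4 (-1.30, SE 0.33) and the ligand gene Dll1 (-1.19, SE 0.32). The number higher was 2 without shMed12 replicate 2 or shCdk8 replicate 1.

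Genes of the integrated stress response, the program of ATF4 that supplies amino acids, were lower in 13 of 19 cases and higher in none, with a median of -0.52. Slc7a11, the cystine importer, stood at 1.35, 1.25 and 2.10 CPM with shMed12, 8.48, 8.45 and 9.48 CPM with shCdk8 and 5.63 to 7.06 CPM with shNMC (-2.49, SE 0.29, adjusted p = 8.6e-07). Vldlr, a lipoprotein receptor, stood at 25.4 to 31.6 CPM against 71.1 to 75.6 CPM (-1.39, SE 0.21), the serine pathway gene Shmt2 at 160 to 212 CPM against 273 to 353 CPM (-0.71, SE 0.12) and the stress protein gene Nupr1 at 11.7 to 22.3 CPM against 31.5 to 44.6 CPM (-1.26, SE 0.23). Over all 6 libraries the summed level of the list was 2201 to 2716 CPM with shMed12 and 3126 to 3521 CPM with shCdk8. TGATGCAA, the letters of a site for ATF4 with a C/EBP partner, was present on either strand in 0.488% of all 11282 promoters and in 3 of the 18 of this list, those of Chac1, Slc7a11 and Nupr1. The list holds textbook members of the ATF4 program, so these matches can follow from how it was composed. In Slc7a11 (minus strand, chr3:50443614-50443863) it stands 66 to 59 bases before the start and, on the opposite strand, 47 to 40 bases before it, where it overlaps an ATTTGCAT match. Both are in capitals.
Slc7a11: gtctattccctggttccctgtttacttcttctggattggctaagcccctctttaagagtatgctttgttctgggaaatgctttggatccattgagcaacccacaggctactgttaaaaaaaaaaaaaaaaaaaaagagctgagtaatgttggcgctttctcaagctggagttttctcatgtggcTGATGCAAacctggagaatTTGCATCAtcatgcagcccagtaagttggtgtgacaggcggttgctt

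Metabolic and growth lists moved less. Of 20 glycolysis and hypoxia genes 7 were higher and 2 lower: the glucose transporter gene Slc2a3 stood at 2951 to 3524 CPM against 1504 to 1698 CPM (1.05, SE 0.11) and Tpi1 was higher (0.85, SE 0.22), while the phosphofructokinase gene Pfkp (-1.28, SE 0.22) and the oxygen sensor gene Egln3 (-1.38, SE 0.31) were lower. The number higher was 3 without shMed12 replicate 3, 4 without shCdk8 replicate 2 and 11 with the 18 hairpin libraries. Cholesterol genes had 7 of 25 higher and 2 lower, all by less than 2-fold. In the cell cycle list 10 of 29 were higher and 3 lower, with cyclin D1, Ccnd1, at 62.9 to 72.6 CPM against 18.6 to 19.4 CPM (1.87, SE 0.26), and the number lower was 1 without shMed12 replicate 2. The CDK inhibitor genes Cdkn2a (1.76, SE 0.29) and Cdkn2b (1.55, SE 0.25) were higher too, and Cdkn1b, the third call among the 7 inhibitors tested, was lower (-0.48, SE 0.13). Of 20 p53 targets 8 were higher and 2 lower, and Cdkn1a, the best known of them, did not pass (0.18). With the 18 hairpin libraries 13 were higher. Cytosolic ribosomal protein genes had 29 of 80 higher and 3 lower, with a median of 0.27. That number was 18 without shMed12 replicate 1, 16 without replicate 2, 13 without shCdk8 replicate 2 and 17 among genes of at least 5 CPM.

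Subunits of the other chromatin and Mediator complexes differed by small amounts. In the head, middle and tail of Mediator 8 of 26 genes were higher and 1 lower, none by 2-fold, with Med11 (0.80, SE 0.15), Med10 (0.49, SE 0.11) and Med22 (0.48, SE 0.09) the largest rises. The number higher was 4 without shMed12 replicate 1 and 5 without shCdk8 replicate 2 or 3. Among the Polycomb repressive complex 1 genes 3 of 23 were higher and 4 lower. Pcgf5, of a variant complex, stood at 38.5 to 45.7 CPM against 18.1 to 19.6 CPM (1.17, SE 0.15), the polyhomeotic gene Phc2 was higher (0.64, SE 0.13), and Bcor (-0.72, SE 0.16) and Auts2 (-0.54, SE 0.12) were lower. Rnf2, the catalytic subunit, did not pass (-0.12, SE 0.29). In complex 2, the histone-binding subunit gene Rbbp7 was higher (0.64, SE 0.12) and 9 of 12 genes did not pass. Its other calls, Eed (0.32) and Jarid2 (-0.35), ended without shMed12 replicate 1 (adjusted p = 0.0701) and without shCdk8 replicate 3 (0.053).

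Germline and meiosis genes were lower in 16 of 24 cases and higher in 1, with a median of -0.80. Sohlh2, a germ-cell factor, stood at 34.3, 36.7 and 37.7 CPM with shMed12, 162, 160 and 134 CPM with shCdk8 and 81.4 to 109 CPM with shNMC, in 3 separate ranges (-2.07, SE 0.16). The chromosome-axis genes Hormad1 (-1.63, SE 0.20) and Hormad2 (-1.73, SE 0.16) and the meiotic gene Tex11 (-1.67, SE 0.21) were lower. Imprinted genes leaned up, 12 of 24 higher and none lower, with a median of 0.61; with the 18 hairpin libraries 4 were lower. The growth factor gene Igf2 stood at 264, 271 and 198 CPM against 9.76, 12.9 and 10.4 CPM (4.47, SE 0.47), its neighbour H19 at 41.0 to 66.7 CPM against 3.21 to 5.19 CPM (3.75, SE 0.27) and Peg3 at 244 to 263 CPM against 67.1 to 83.5 CPM (1.73, SE 0.19). Airn (3.47, SE 0.48) overlaps Igf2r on the other strand, and without the strand setting of the counting its reads cannot be told apart with certainty.

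Genes of the 2-cell-like state, a rare totipotent-like condition of mESC cultures, were higher in 12 of 14 cases, with none lower and a median of 2.34. Tcstv1 stood at 112, 116 and 66.0 CPM with shMed12, 23.9, 21.1 and 14.4 CPM with shCdk8 and 58.6, 58.8 and 29.1 CPM with shNMC (2.31, SE 0.35), with the shCdk8 libraries below all the others. Tcstv3 (2.38, SE 0.34), Tdpoz3 (2.89, SE 0.44) and Zfp352 (2.59, SE 0.41) were higher as well. Most of these genes have near-identical copies, so how reads were split among copies is uncertain. The interferon list had 10 of 31 higher and 4 lower. Gbp1, Gbp2 and Gbp3, guanylate-binding proteins with similar sequences, were the largest (3.06, 2.93 and 2.79), with Gbp2 at 44.1, 45.2 and 27.1 CPM against 6.42, 5.89 and 2.88 CPM. The antiviral tether gene Bst2 stood at 63.5 to 75.2 CPM against 24.4 to 27.0 CPM (1.43, SE 0.15). Replication-dependent histone genes, most of whose mRNAs lack the poly-A tail that the libraries select, had 4 of 24 higher and 4 lower, with 2 lower without shCdk8 replicate 1.

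**Figure D4:**
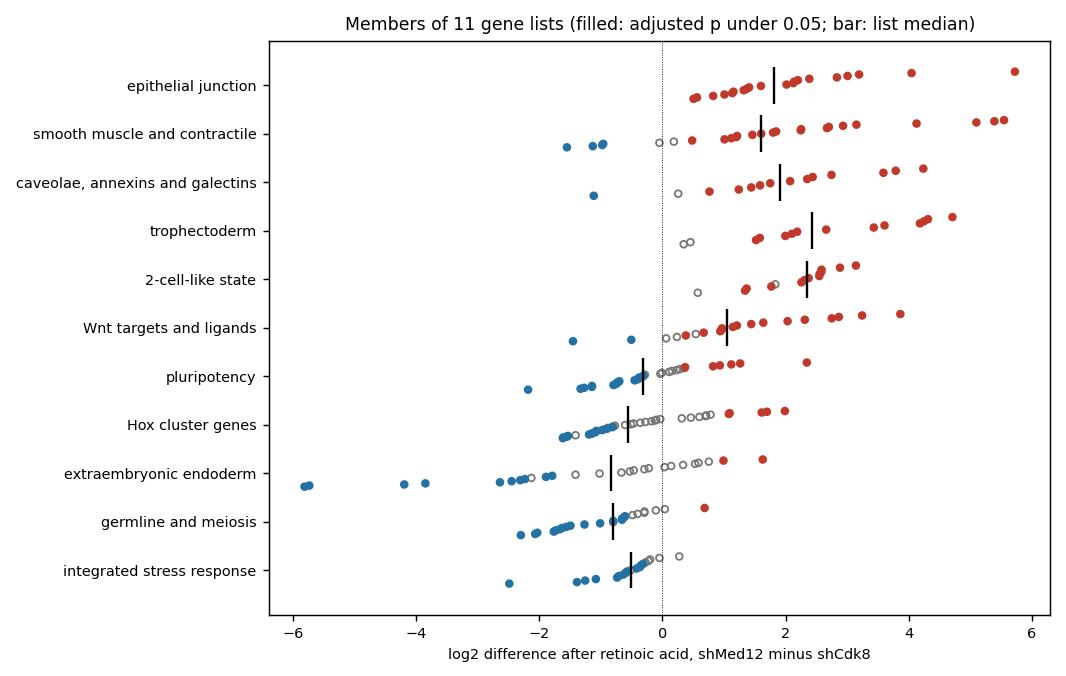
Log2 difference of shMed12 minus shCdk8 after RA (x axis) for the tested members of 11 gene lists (y axis; point, a gene; filled red or blue, called; open grey, not called; bar, list median). The medians run from 2.43 (trophectoderm) to -0.84 (extraembryonic endoderm), and epithelial junction genes all lie to the right of 0.

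The same 2 lines were compared in mESCs kept in LIF, in libraries that share none with the RA comparison. There 2994 genes (18.4%) were higher and 2839 (17.4%) lower with shMed12. In both states 1979 were higher, which is 57.0% of the rises after RA and 66.1% of those in mESCs, and 1858 were lower (56.7% and 65.4%). Opposite calls were few, with 26 genes higher after RA and lower in mESCs and 55 the reverse. In mESCs Med12 differed by -1.48 and Cdk8 by 2.12, and neither differed between states by the test below (adjusted p = 0.947 and 0.748). Epithelial junction genes were higher in 20 of 20 cases in mESCs as well (median 1.5), contractile genes in 20 of 25 (2.05) and trophectoderm genes in 13 of 14 (3.38). Other lists leaned differently in the 2 states. Hox genes, with 12 lower and 5 higher after RA, had 2 lower and 9 higher in mESCs, with a median of 0.65, and the retinoid list had 12 higher and 7 lower there, with a median of 0.26. By the test below, 2 Hox genes and 3 retinoid genes had a negative and 2 retinoid genes a positive change between states.

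Whether the difference between the lines itself differed between states was tested as an interaction, the RA difference minus the mESC difference. It was positive for 296 genes (1.82%) and negative for 511 (3.14%), while 2944 genes had an unadjusted p under 0.05. With any 1 of the 12 libraries left out, 138 to 236 were positive and 286 to 553 negative, and with the 18 hairpin libraries 1145 and 1466. Of the 511, 365 were higher with shMed12 in mESCs, and 197 of these were not called after RA. Of the 296, 156 were lower with shMed12 in mESCs and 166 were higher with it after RA. LIF withdrawal and RA came together in these samples, so their parts in the change between states cannot be told apart.

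For several RA genes and T the difference between the lines changed between states. It was smaller after RA in Cyp26a1, Rarb and T, and larger after RA in Lrat and Hoxb4. Cyp26a1 stood at 5.26, 5.18 and 2.22 CPM with shMed12 and 0.773, 1.15 and 0.794 CPM with shCdk8 in mESCs (2.20), and at levels that overlapped after RA, an interaction of -2.10 (SE 0.40, adjusted p = 0.0028). Rarb showed the reverse, at 0.333 to 0.403 CPM against 1.19 to 1.43 CPM in mESCs, with an interaction of 1.5 (adjusted p = 0.0042). T stood at 18, 17.4 and 3.32 CPM against 0.489 to 0.718 CPM in mESCs (4.48), with an interaction of -3.45 (adjusted p = 0.0017). Lrat was higher with shMed12 in mESCs (0.62) and lower after RA (interaction -2.06). Hoxb4 had 0.277 to 0.692 CPM in all 6 mESC libraries and did not pass there (0.39, adjusted p = 0.483), while it differed after RA (interaction -2.0, adjusted p = 0.014), a call that ended without mESC shMed12 replicate 1 (adjusted p = 0.0896).

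Positive interactions were largest in Gabrp, which stood at 0.282 to 0.403 CPM with shMed12 and 0.397 to 0.497 CPM with shCdk8 in mESCs (interaction 5.78, SE 0.47, adjusted p = 4.1e-07). The ligand gene Fgf17 overlapped between the lines in mESCs, at 10.1 to 13.5 and 10.1 to 14.7 CPM, and stood at 5.49 to 7.47 CPM against 1.17 to 1.52 CPM after RA (2.33). Tcfeb, which encodes a factor of lysosome genes, was lower with shMed12 in mESCs, at 14.5 to 16.6 CPM against 29.4 to 31.3 CPM, and higher after RA, at 13.3 to 17.0 CPM against 4.22 to 5.96 CPM (2.49). Emx2 (2.50) and the metal transporter gene Slc11a1 (2.23) completed the 5. Negative interactions were largest in Arg1, Cyp1b1 (-4.77), Ccrl1 (-4.0), Enpp2 (-3.76) and Irgm1 (-3.58). The cytochrome gene Cyp1b1 stood at 4.45 to 4.75 CPM against 0.170 to 0.276 CPM in mESCs, and after RA its groups overlapped at 8.66 to 10.2 and 6.09 to 16.7 CPM. For the arginase gene Arg1 the mESC libraries held 19 reads with shMed12 and 1 with shCdk8, a ratio of 20.0 (3.17 to 829, counting error only). Its fitted interaction depends on the prior count, and it ended without mESC shMed12 replicate 2 (adjusted p = 0.0538). After RA Arg1 stood at 4.37 to 5.63 CPM against 8.43 to 12.6 CPM (-1.12).

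**Figure D5:**
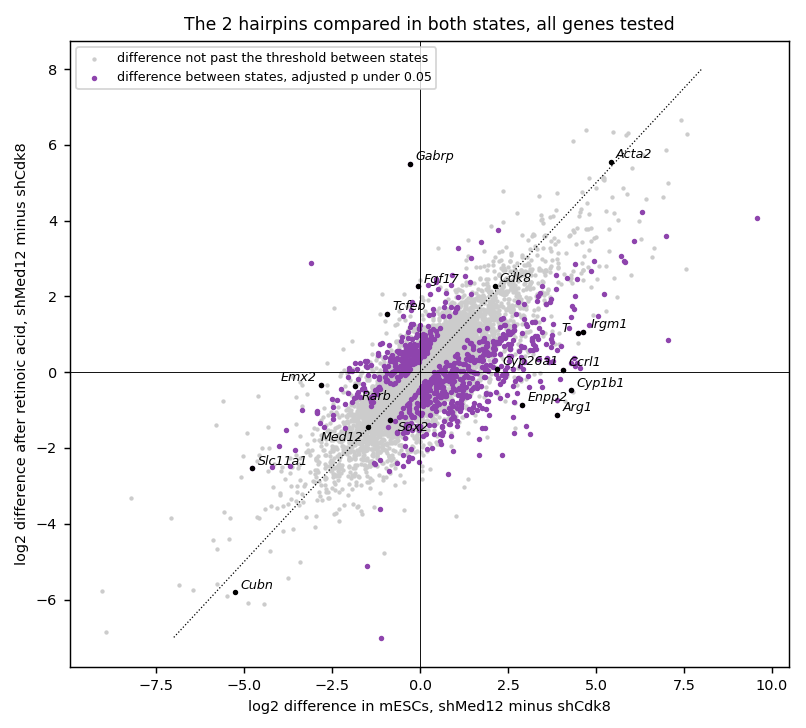
Log2 difference of shMed12 minus shCdk8 after RA (y axis) against the same difference in mESCs (x axis) for the 16280 genes tested (point, a gene; purple, interaction called; black, named; dotted line, equal differences). Acta2, Cubn and Cdk8 lie near the line, Gabrp far above it and Cyp1b1, Ccrl1 and Arg1 far below it.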

How the data were processed

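Strand-specific poly-A mRNA-seq libraries with 50-base reads were made from Trizol-extracted RNA, per the labels' protocols. The authors deposited whole-number read counts per gene for each of 24 libraries, 22609 genes a file. The submitters' processing notes name build mm9 and, as tools, STAR 2.3.1z13, HTSeq 0.6.1p1, DESeq2 1.6.3, bcl2fastq 1.8.4 and SAMtools 1.2. Which annotation was counted, and with which strand option, is not given in the sources used here. Entries for reads that HTSeq could not assign stayed out of library sizes; in the 6 libraries 8.70% to 10.1% were in no feature and 0.114% to 0.125% were ambiguous.

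From these counts, edgeR 4.0.16 in R 4.3.3 was run (filterByExpr, TMM, robust quasi-likelihood F test, two-sided) with 1 mean for each of the 8 groups, so that all 24 libraries share an estimate of the spread. P-values were adjusted by the Benjamini-Hochberg method over 16280 genes in each comparison, with a threshold of 0.05, and the SE is the log2 difference over the square root of F. The library labelled shRing1b replicate 3 in the series goes against its label. It is in no group compared, but it enters the shared spread behind every SE and p-value. With the 18 hairpin libraries, which leave out the shRing1b and mESC control groups, 4438 genes were higher and 4489 lower after RA. The counts were 4381 and 4275 with the 9 RA libraries, and 4373 and 4322 with the 6 compared. The shRing1b and mESC control libraries had 20.0% to 21.7% of entries in reads with several alignments, against 44.1% to 47.7% in the 6 compared. The part of shRing1b replicate 3, or of the other libraries left out, in these changes was not tested. Alternatives included median-ratio size factors, other filters, DESeq2 1.42.0, limma 3.58.1 (voom), fewer groups, a replicate block and each library left out. In mESCs, same-numbered shMed12 and shCdk8 libraries deviated together (correlations 0.157 to 0.339, 6 of 6 best with their own number). The code was tested on simulated counts.

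The comparison and the 41 gene lists were chosen with earlier results of these data known. Named genes are the 7 kinase module genes, the 10 largest rises and 10 largest falls (called, at least 5 CPM in a group, groups not overlapping), from each list with 3 or more calls up to 4 called members, taken in order of p, the 5 largest interactions each way, and 13 reference genes. A few of these genes are left out of the text. Named after their values were seen were Mylk, Myh11, Actg2, Tnnt1, Des, Ctgf, Crim1, Sdpr, Lgals3, Dcn, Thy1, Pdgfrb, Vim, Elf5, Eomes, Afp, Ttr, Apoa1, Kdr, Hoxc8, Hoxc9, Hoxc10, Hoxd9, Hoxd10, Chac1, Cdkn1a and Igf2r.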

Additional observations from a re-analysis of the deposited data

Results flagged for a closer look

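In each case below the difference between the 2 lines after RA differed from that in mESCs, by the interaction term of edgeR's quasi-likelihood test (adjusted p under 0.05, 3 libraries a group). The values are the RA difference minus the mESC difference of shMed12 against shCdk8 on the log2 scale. They were positive for 296 genes and negative for 511, and 43 genes chosen by the naming rule were among them, of which those reported here follow.

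Retinoid, Hox and cofactor genes with a called interaction were Rarb (1.5), Stra8 (1.92), Cyp26a1 (-2.10), Lrat (-2.06), Hoxb4 (-2.0) and Pbx3 (-0.60). Among pluripotency, primed and early lineage genes they were Nanog (0.91), Sox1 (2.04), Emx2 (2.50), Sox2 (-0.43), T (-3.45), Fgf15 (-1.51), Pecam1 (-1.16), Dnmt3a (-0.80) and Tet2 (0.73). Epithelial, matrix and membrane genes were Cdh1 (0.60), Cldn4 (1.56), Cav1 (-2.07), Col1a1 (-1.80) and Col6a3 (-2.01).

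In signalling the genes were Fgf17 (2.33), Spry2 (0.77), Smad7 (0.80), Inhbb (1.70), Junb (0.91), Wnt3 (-1.99) and Wnt4 (-1.52). In the interferon group they were Gbp1 (-2.65), Gbp2 (-2.85) and Irgm1 (-3.58). The others were Med12l (-1.20), Mcm7 (0.42), H19 (1.53), Gabrp (5.78), Tcfeb (2.49), Slc11a1 (2.23), Arg1 (-5.02, a fitted value that depends on the prior count), Cyp1b1 (-4.77), Ccrl1 (-4.0) and Enpp2 (-3.76).

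Of these 43 genes, 25 were called whichever of the 12 libraries was left out. Junb lost the call with any library left out (highest adjusted p = 0.152) and under the replicate block (0.0536), Col6a3 in 10 cases of 12 (0.141), Fgf15 and Wnt4 in 9 (0.0957 and 0.0878), and Nanog and Inhbb in 8 (0.1 and 0.0968). Cdh1 (0.0725), Pbx3 (0.0867) and Slc11a1 (0.0974) lost it in 7 cases, and Mcm7 (0.0802) and Pecam1 (0.075) in 6. Med12l lost it in 5 (0.0674), Wnt3 in 4 (0.064) and H19 in 2 (0.0656). In 1 case each, the call of Arg1 ended without mESC shMed12 replicate 2 (0.0538), of Hoxb4 without mESC shMed12 replicate 1 (0.0896) and of Sox2 without RA shCdk8 replicate 2 (0.0676). Other processing ended calls too. Junb lost it with median-ratio size factors (0.0507), no filter (0.0707) and at least 5 CPM in 3 libraries (0.0635). Without a filter Col6a3 (0.0521) and Inhbb (0.0509) lost it, and with limma voom Slc11a1 (0.0945), Fgf15 (0.0512) and Wnt3 (0.0542).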

How the results depend on the processing

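The counts after RA were 2688 to 4438 higher and 2414 to 4489 lower over 15 alternatives, and 2741 to 3087 and 2483 to 3086 with 1 of the 6 libraries left out. Median-ratio size factors gave 3452 and 3302, DESeq2 3624 and 3401, and limma voom 3771 and 3550. No named gene changed sign after RA where it was called in the main fit or in the alternative. Sign changes of genes called in neither were not counted. Of 183 calls of named genes, 6 (Irgm1, Pou5f1, Eed, Meis2, Ccnc and Jarid2) were lost under at least 1 alternative. Most named genes were chosen for a call with a large difference or a low p. Few lost calls thus follow from that choice and do not describe the calls over all genes. With at least 5 CPM in 3 libraries, which tests fewer genes, 603 were higher and 509 lower by at least 2-fold after RA, and 812 and 453 in mESCs. The interaction moved most: DESeq2 gave 485 positive, the 18 hairpin libraries 1145 positive and 1466 negative, and the cause was not tested. With 1 library left out it was positive for 138 to 236 genes and negative for 286 to 553. Positive counts moved by over 1.5 times without RA shMed12 replicate 1 (174) or 2 (161), RA shCdk8 replicate 1 (184) or 2 (141), mESC shMed12 replicate 1 (163) or 2 (138), or mESC shCdk8 replicate 1 (158), 2 (166) or 3 (145). Negative counts did so without RA shMed12 replicate 2 (328), RA shCdk8 replicate 2 (286), or mESC shMed12 replicate 1 (320) or 2 (332).

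With a replicate block, 3751 genes were higher and 3460 lower after RA, 3171 and 3092 in mESCs, and the interaction was positive for 366 and negative for 614. The block moved none of these counts by over 1.5 times. Of the gene lists after RA it moved Polycomb repressive complex 1 genes higher from 3 to 5, fibrous matrix genes lower from 3 to 5, Mediator core genes lower from 1 to 2 and imprinted genes lower from 0 to 1, and of the interactions it ended the call of Junb (adjusted p = 0.0536). Between RA shMed12 and RA shCdk8 the deviations of libraries with the same number correlated at 0.039 to 0.348, and 5 of 6 libraries correlated best with their own number. Not every pair was over 0.1, the bar for a pairing, so the fit without the block is the one reported, although the data hint at one. Across states the same held for shMed12 (0.0047 to 0.375, 4 of 6), while shCdk8 libraries were over 0.1 in every pair (0.169 to 0.371, 6 of 6), as were RA shCdk8 with mESC shMed12 (0.185 to 0.356, 6 of 6). The mESC comparison also met that bar (0.157 to 0.339, 6 of 6). Its counts and the interaction were nevertheless reported from the fit without the block, so that all comparisons share a fit.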
